A study of Mus musculus with 6 samples.

Results

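Voltage-gated potassium, calcium and sodium channels and their relatives were examined in the count table of Neuro2a cells, an established mouse neuroblastoma line. The members were taken by gene symbol alone: all numbered Kcn genes, the Cacna1, Cacna2d, Cacnb and Cacng subunits, the numbered Scn genes ending in a or b, and Hcn genes. This gave 135 of the 24391 genes in the table. The symbol rule also takes in channels that are not opened by voltage, namely inward rectifiers, two-pore-domain channels and small-conductance calcium-activated channels, as well as auxiliary subunits that form no pore. It leaves out Scn2a1, the table's symbol for the neuronal sodium channel gene Scn2a, which was counted among the partners described further on.

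The control group was 3 samples given vehicle, and the D-serine group was 3 samples given 5 mM D-serine. All 6 were grown in D-MEM with 10% FBS and then moved for 18 h to the medium written as D-MEM(-SG), also with 10% FBS, so that the controls too had the change of medium. Neuro2a is a single tumour-derived line, and the labels do not say whether the replicates were separate cultures, so the p-values measure only the spread between these libraries. Total counts ranged from 32518483 to 40024265 and overlapped between groups. Genes with at least 1 count numbered 15497 to 15561 in control and 15739 to 15853 with D-serine, without overlap, and the part of this in the results was not tested.

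Voltage-gated channels are membrane proteins whose pore opens when the voltage across the membrane changes. In nerve cells, sodium channels start the action potential, potassium channels end it and set the resting potential, and calcium channels turn the electrical signal into calcium entry that drives release, enzymes and gene expression. HCN channels open on hyperpolarization and carry the pacemaker current, and auxiliary subunits tune how many pores reach the membrane and how fast they close. D-serine is known as a co-agonist of the NMDA receptor, a ligand-gated channel that is not among these genes.

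The label of the cells was checked against marker genes. Hand2, a transcription factor of sympathetic precursors, had a mean of 263 TPM (TPM is a level per length: counts divided by exonic length and scaled to the same sum in each library). The catecholamine enzyme gene Th was low at 2.63 TPM, and the neurofilament gene Nefl had 2 counts in all. Summed over 15 neuroblast and neuronal markers, the level was 2307 to 2397 TPM in control and 2490 to 2547 TPM with D-serine, and 2 of the 14 tested markers rose (Tubb3 and Mycn). The lists for fibroblasts, myeloid, endothelial, glial and muscle cells each summed to under 10 TPM in every library, and none of their tested genes passed the threshold. The part of the neuronal markers in the results was not tested.

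D-serine replicate 1 stood apart from the other libraries. When its counts were compared with those of D-serine replicates 2 and 3, chi-square per degree of freedom was 17.7 and 13.9, whereas the other pairs within a group gave 3.88 to 6.54. In it, long genes were low: the slope of its deviation from the gene means was -0.0717 log2 CPM per doubling of exonic length, compared with -0.00397 to 0.0356 in the other 5 libraries. Many channel genes are long, so values without this library, or with the length trend of every library removed, are given beside several results.

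Of the 135 channel genes, 29 had no count in any library. Over all libraries together a count of 0 allows a level of up to 0.0135 CPM (counts scaled to a common library size), which covers counting error only. A further 44 had counts but did not pass the filter for the test, the highest being Cacnb2 with 50 counts in all, and Kcnh7 was among the lowest that passed with 58. The remaining 62 were tested. Their median level was 4.20 TPM, against 23.3 TPM over all 13366 genes tested, and 10 of them had a mean of at least 20 TPM. These 10 were Cacng7, Hcn2, Kcnh2, Cacng3, Cacnb3, Hcn4, Kcnab2, Cacng4, Kcnk3 and Cacna1b, as the plot of levels by class shows.

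**Figure D1:**
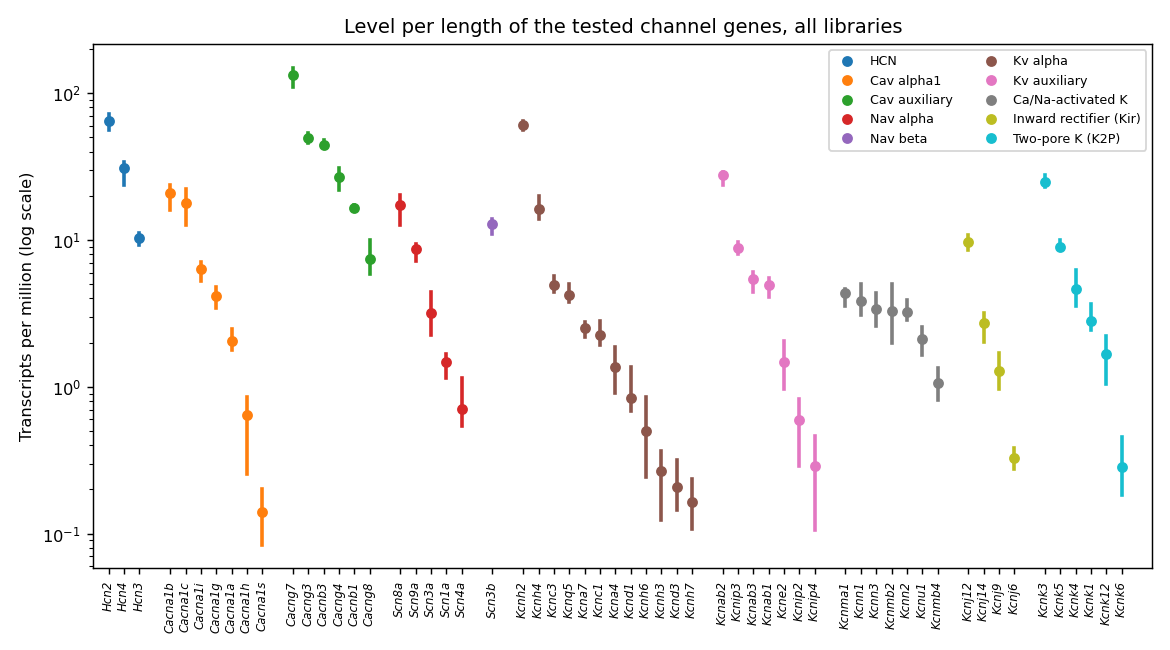
Mean level per length of 58 tested channel genes in TPM (vertical axis, log scale), grouped by class; points are means of all 6 libraries and bars run from the lowest to the highest library. Cacng7 was the most abundant at 133 TPM, and Kcnh7, at 0.164 TPM, was near the low end with the Cav gene Cacna1s at 0.141 TPM.

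With D-serine, 1 channel gene rose and 3 fell. Kcnmb2, an auxiliary subunit of the large-conductance calcium-activated potassium channel, doubled from a low level, and the pacemaker channel gene Hcn2, the gamma subunit gene Cacng7 and the L-type calcium channel gene Cacna1c fell by 17.0% (Hcn2 and Cacng7) and 23.8% (Cacna1c). In the quasi-likelihood test of edgeR, 4 of 62 tested members (6.45%) had an adjusted p under 0.05. Over all genes tested 9.74% were called, 4.84% higher and 4.9% lower, so the count among channel genes is near the background. The DESeq2 Wald test called the same 4 members. At an unadjusted p under 0.05 there were 15 members (24.2%), where 28.2% of all tested genes were, and the counts at this level given for each class are to be read against that share. As this is bulk RNA, fewer cells expressing a gene and less RNA per cell cannot be told apart. The number of calls moved with single libraries, as did that over all genes. Without control replicate 2, 2 members were called (3.17%, against 0.501% of all genes), and 2 were called without D-serine replicate 3 (3.23% against 2.15%). Leaving out D-serine replicate 2 gave 7 (11.3% against 11.6%).

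Control and D-serine libraries were fully separate for 15 of the 62 tested members (24.2%), where 32.9% of all tested genes had no overlap. The median log2 fold change of the members was -0.10, with 41 below 0 and 21 above, and the median over all tested genes was 0.0053. Without D-serine replicate 1 these medians were -0.058 and 0.0050. Leaving out control replicate 1 gave a median of -0.062 for the members.

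**Figure D2:**
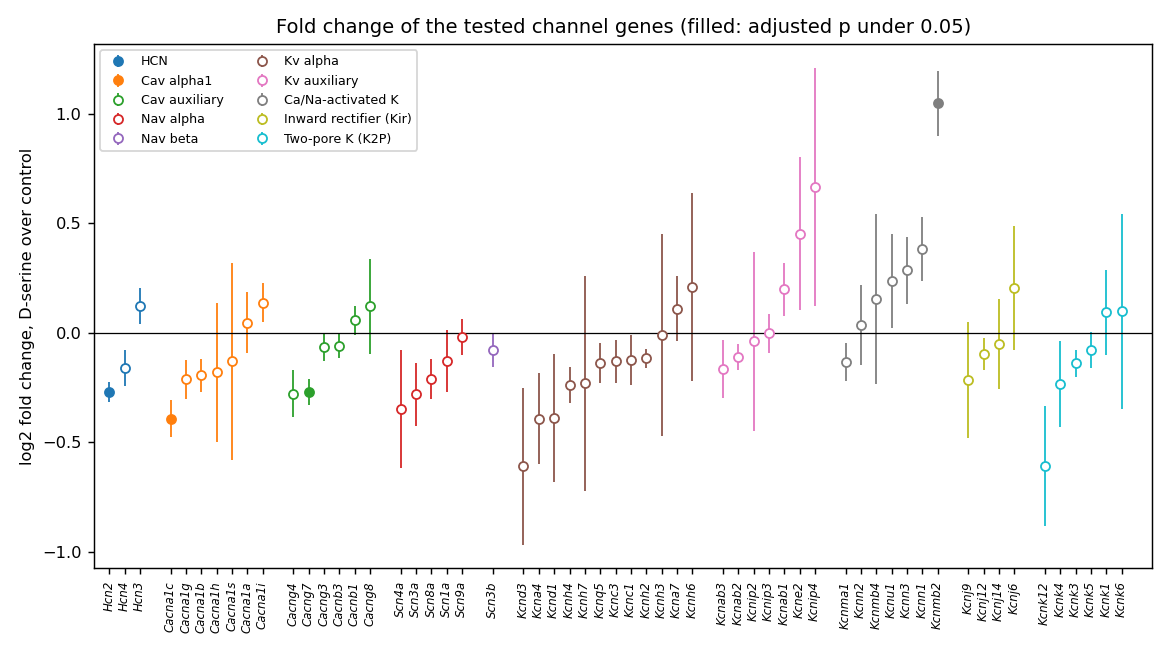
Log2 fold change of D-serine over control (vertical axis) for 58 tested channel genes, grouped by class and ordered within it; bars are 1 standard error and filled points passed an adjusted p of 0.05. The filled points are Hcn2, Cacna1c and Cacng7 below 0 and Kcnmb2 at 1.05.

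The promoter windows of Kcnmb2, Hcn2 and Cacng7 are shown because Kcnmb2 and Hcn2 were the members that kept their call under every processing tried and Cacng7 is the most abundant member. They hold the 250 bases before the RefSeq start, on the plus strand of GRCm38.p6, at chr3:31902453-31902702, chr10:79716384-79716633 and chr7:3332575-3332824. Capitals mark matches, on either strand, to the GC box GGGCGG or the CCAAT box CCAAT. The TATA box TATAAA and the cAMP response element TGACGTCA were also searched and were not found in these windows.
Kcnmb2: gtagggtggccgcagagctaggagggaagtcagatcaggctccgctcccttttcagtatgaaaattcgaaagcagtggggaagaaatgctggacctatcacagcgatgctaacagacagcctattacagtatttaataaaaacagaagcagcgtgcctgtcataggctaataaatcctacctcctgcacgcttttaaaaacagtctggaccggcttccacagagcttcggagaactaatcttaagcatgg
Hcn2: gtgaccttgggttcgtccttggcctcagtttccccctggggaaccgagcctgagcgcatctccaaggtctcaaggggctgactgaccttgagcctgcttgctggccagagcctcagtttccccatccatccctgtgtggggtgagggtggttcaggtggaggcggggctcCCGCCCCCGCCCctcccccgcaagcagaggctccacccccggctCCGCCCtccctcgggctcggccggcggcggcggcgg
Cacng7: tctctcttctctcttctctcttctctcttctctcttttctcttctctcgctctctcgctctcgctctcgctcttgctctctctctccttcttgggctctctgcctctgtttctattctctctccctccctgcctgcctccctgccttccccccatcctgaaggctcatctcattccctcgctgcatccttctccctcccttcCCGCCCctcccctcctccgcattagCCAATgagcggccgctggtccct
The windows differ in base composition, with a GC content of 70.4% for Hcn2, 58.0% for Cacng7 and 47.2% for Kcnmb2, where the median over 20778 windows of genes in the table was 55.6%. An unbroken stretch of bases just after the start was found in a GENCODE transcript of Kcnmb2 and of Hcn2 but not of Cacng7. A splice junction within that stretch would also give no match, so whether GENCODE holds the start of Cacng7 is not known. The Hcn2 window holds 3 GC boxes and that of Cacng7 holds 1 GC box and 1 CCAAT box, whereas Kcnmb2 has none of these letters. Of all windows, 43.1% hold a GC box, 35.1% a CCAAT box, 11.3% a TATA box and 2.0% a cAMP response element. Cacna1c has 3 windows in RefSeq, and counts per gene do not tell which start was used, so none is printed.

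HCN channels carry the current that slowly depolarizes a cell after hyperpolarization. Of the 4 genes, 3 were tested, and Hcn2 made up 61.0% of their summed TPM, Hcn4 29.1% and Hcn3 most of the rest.

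Hcn2 was at 96.2, 93.0 and 97.2 CPM in control replicates 1 to 3 and at 78.8, 78.4 and 80.4 CPM in D-serine replicates 1 to 3. All D-serine libraries lay below all control libraries, and the libraries of each group lay close together. Hcn2 (chromosome 10, 79179379 to 79198853, plus strand, as deposited) fell from 95.5 ± 2.16 to 79.2 ± 1.06 CPM (SD, n = 3 each), a log2 fold change of -0.27 (SE 0.045, edgeR adjusted p = 0.00777). Hcn4, the main form of the cardiac pacemaker, was at 53.6, 51.6 and 51.7 CPM in control and at 39.6, 49.3 and 51.6 CPM with D-serine. D-serine replicate 3 was level with the lowest control library, and D-serine replicate 1 was far below the rest. The log2 fold change of Hcn4 was -0.16 (SE 0.081, edgeR adjusted p = 0.214), and -0.052 without D-serine replicate 1. Hcn3 had a log2 fold change of 0.12 (edgeR adjusted p = 0.367).

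**Figure D3:**
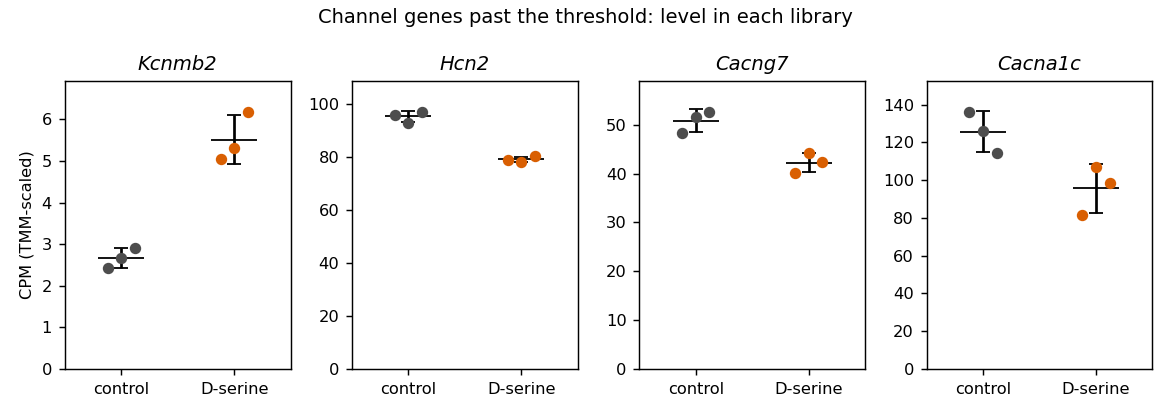
Expression in TMM-scaled CPM (vertical axis, from 0) of the 4 channel genes past the threshold; each point is a library, the horizontal mark is the group mean and bars are 1 SD (n = 3 each). The groups are separate in all 4 panels, with group means of Kcnmb2 at 2.66 (control) and 5.51 (D-serine) CPM.

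The alpha1 subunits form the pore of voltage-gated calcium channels. All 10 genes had counts and 7 were tested. The N-type channel gene Cacna1b, which serves transmitter release, held 40.4% of their summed TPM and the L-type gene Cacna1c, which couples depolarization to gene expression, held 33.8%. The T-type genes Cacna1i and Cacna1g, which open near the resting potential, followed at 6.29 and 4.15 TPM. The P/Q-type gene Cacna1a was at 2.04 TPM. Neuronal L-type Cacna1d and R-type Cacna1e each had 2 counts in all, so that Cacna1c was the main L-type transcript.

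Cacna1c was at 136, 126 and 115 CPM in control replicates 1 to 3 and at 81.7, 107 and 98.5 CPM in D-serine replicates 1 to 3. The groups did not overlap, but control replicate 3 and D-serine replicate 2 lay close together and D-serine replicate 1 was the lowest. Cacna1c (chromosome 6, 118537258 to 119146427, minus strand, as deposited) fell from 126 ± 10.8 to 95.7 ± 12.9 CPM (SD, n = 3 each), a log2 fold change of -0.39 (SE 0.085, edgeR adjusted p = 0.0166). At 14774 exonic bases it is the longest of the tested members, and with the length trend removed the log2 fold change was -0.24 (adjusted p = 0.000587). Without D-serine replicate 1 it was -0.29 (adjusted p = 0.00202). The call was lost without control replicate 1 (adjusted p = 0.0797), control replicate 2 (0.0713) or D-serine replicate 3 (0.0505).

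Cacna1b was at 96.0, 90.1 and 92.2 CPM in control and at 69.2, 89.2 and 84.9 CPM with D-serine. D-serine replicate 1 was low and the other D-serine libraries lay just under the controls. Its log2 fold change was -0.19 (SE 0.076, edgeR adjusted p = 0.119), and -0.091 without D-serine replicate 1. Over the class, 1 of 7 members fell and none rose, 5 had a log2 fold change below 0 and the median was -0.18. This median was -0.091 without D-serine replicate 1, -0.27 without D-serine replicate 2 and -0.090 with the length trend removed. Cacna1i, at 0.14, passed the threshold with the length trend removed (0.25, adjusted p = 0.0290).

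Auxiliary calcium channel subunits comprise the beta subunits, which bring the pore to the membrane, the alpha2-delta subunits, and the gamma subunits, several of which are better known for guiding AMPA-type glutamate receptors. Of 16 genes 6 were tested. The gamma gene Cacng7 held 47.7% of the summed TPM of the class, and was followed by Cacng3, Cacnb3 and Cacng4 at 49.8, 44.0 and 26.7 TPM. All 4 alpha2-delta genes were below the filter, with between 0 and 44 counts each.

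Cacng7 was at 48.3, 51.7 and 52.7 CPM in control replicates 1 to 3 and at 40.2, 44.1 and 42.3 CPM in D-serine replicates 1 to 3. The control libraries were all higher than the D-serine libraries. Cacng7 (chromosome 7, 3336685 to 3366537, plus strand, as deposited) fell from 50.9 ± 2.31 to 42.2 ± 1.96 CPM (SD, n = 3 each), a log2 fold change of -0.27 (SE 0.058, edgeR adjusted p = 0.0160). The call was lost without control replicate 2 (adjusted p = 0.0757), control replicate 3 (0.0615) or D-serine replicate 3 (0.0583). Its exonic length as deposited is short, at 828 bases, and with the trend on that length removed its log2 fold change was -0.38.

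Cacng8, another gamma subunit gene on chromosome 7, had a log2 fold change of 0.12 (SE 0.22, edgeR adjusted p = 0.757). Cacng4, another gamma subunit linked to AMPA receptors, was at 12.2, 11.4 and 13.0 CPM in control and at 9.71, 8.92 and 11.5 CPM with D-serine. The highest D-serine library lay just above the lowest control library. The log2 fold change of Cacng4 was -0.28 (SE 0.11, edgeR adjusted p = 0.111). Cacnb3, the main beta subunit gene here, had -0.062 (adjusted p = 0.50) and Cacng3 had -0.065 (adjusted p = 0.530). Over the class, 1 of 6 fell, none rose, and the median log2 fold change was -0.063, or -0.10 without D-serine replicate 2 and -0.12 with the length trend removed.

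Sodium channel alpha subunits form the pore that starts the action potential. Of 9 genes 5 were tested, and Scn8a held 54.8% and Scn9a 27.6% of their summed TPM. Scn8a encodes the channel concentrated at axon initial segments and nodes, and Scn9a one that is typical of peripheral sensory and sympathetic neurons. The counts of Scn9a are uncertain, since Gm13629 shares 319 exonic bases with it on the opposite strand. The sensory neuron genes Scn10a and Scn11a were below the filter, with 2 and 16 counts in all.

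None of the 5 alpha genes was called by edgeR or DESeq2, and 1 had an unadjusted p under 0.05. That gene, Scn8a, was at 96.1, 88.9 and 83.5 CPM in control and at 63.4, 83.7 and 84.7 CPM with D-serine. The groups overlapped, and the lowest value was again that of D-serine replicate 1. Its log2 fold change was -0.21 (SE 0.091, edgeR adjusted p = 0.151), and -0.087 without that library. The median of the class was -0.21. It was -0.087 without that library, -0.11 without control replicate 1, -0.093 without control replicate 3 and -0.090 with the length trend removed. Dropping D-serine replicate 2 moved this median the other way, to -0.27, and dropping D-serine replicate 3 moved it to -0.28. With control replicate 2 dropped it was -0.22. Of the beta subunits, which anchor and modulate the pore, 2 of 4 were tested. Neither was called by edgeR or DESeq2 and none had an unadjusted p under 0.05. Scn3b, at 12.9 TPM, had a log2 fold change of -0.078 (edgeR adjusted p = 0.535).

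Voltage-gated potassium channel alpha subunits repolarize the membrane. Of 40 genes 15 were tested and 15 had no count at all, among them Kcna1, Kcna6, Kcnc2 and Kcnd2, which are prominent in brain neurons. Kcnh2, which encodes the ERG channel, held 48.8% of the summed TPM. Kcnh4, of the same EAG family, was at 16.2 TPM. Of the genes for the M-current, which restrains firing, Kcnq3 had 2 counts in all and Kcnq5 was at 4.25 TPM.

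No alpha gene of this class was called by edgeR or DESeq2, and 4 had an unadjusted p under 0.05. Kcnh2 was at 125, 122 and 126 CPM in control and at 115, 114 and 114 CPM with D-serine. The groups were separate by a small distance. The log2 fold change of Kcnh2 was -0.12 (SE 0.041, edgeR adjusted p = 0.0887). Kcnh4 was at 31.4, 27.3 and 25.4 CPM in control and at 23.1, 25.4 and 22.8 CPM with D-serine. The nearest libraries of the groups were almost equal. Its log2 fold change was -0.24 (SE 0.082, edgeR adjusted p = 0.0807), and it was past the threshold with the length trend removed (-0.25, adjusted p = 0.0248). The class median was -0.14, with 12 of 15 below 0. It was -0.067 when control replicate 1 was left out, -0.23 when D-serine replicate 2 was, and -0.082 with the length trend removed.

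The auxiliary subunits of these potassium channels are the cytoplasmic beta subunits, the small single-span Kcne proteins and the calcium-binding Kcnip proteins. Of 11 genes 7 were tested. Kcnab2, a beta subunit, held 55.9% of the summed TPM and had a log2 fold change of -0.11 (SE 0.059, edgeR adjusted p = 0.245), and Kcnip3 had -0.0028. None was called by edgeR or DESeq2 and none had an unadjusted p under 0.05. Kcne4, below the filter, had 4, 9 and 4 counts in control and 0 in each D-serine library. With 3 counts over the D-serine group as the floor and the 17 control counts taken as exact, the level was 6.18-fold lower with D-serine. The error of so few control counts is left out, so the true difference can be smaller. Kcne4 was called by edgeR only when no filter was applied.

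Calcium- and sodium-activated potassium channels open when calcium or sodium rises inside the cell and damp further firing. The class was taken by symbol, so it also holds beta subunits and Kcnu1, whose channel is not opened by calcium or sodium. Of 12 genes 7 were tested, all between 1.06 and 4.32 TPM. Kcnma1, the pore of the large-conductance (BK) channel, was the most abundant at 4.32 TPM. Its beta subunits change how the pore senses calcium, and the one encoded by Kcnmb2 also closes it by inactivation.

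Kcnmb2 had 78, 99 and 108 counts in control replicates 1 to 3 and 198, 195 and 249 counts in D-serine replicates 1 to 3. In CPM these were 2.42, 2.67 and 2.90 in control and 5.05, 5.30 and 6.18 with D-serine. Every D-serine library was well above every control library. Kcnmb2 (chromosome 3, 31801625 to 32099102, plus strand, as deposited) rose from 2.66 ± 0.24 to 5.51 ± 0.59 CPM (SD, n = 3 each), a log2 fold change of 1.05 (SE 0.15, edgeR adjusted p = 0.00424) or 2.07-fold. No other tested member had as large a log2 fold change in either direction. No exon of Kcnmb2 overlaps another gene of the table.

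Per length, Kcnmb2 went from 2.16 ± 0.17 to 4.43 ± 0.54 TPM (SD, n = 3 each), while Kcnma1 was at 4.54 ± 0.15 TPM in control and 4.10 ± 0.47 TPM with D-serine. Per deposited exonic length, the auxiliary subunit was thus lower than the pore in control and at about the same level with D-serine. These lengths, 2919 bases for Kcnmb2 and 7836 for Kcnma1, need not be those of the transcripts present, so the ratio is uncertain. For Kcnma1, D-serine replicate 1 was the lowest library, at 12.3 CPM against 14.3 and 14.4 CPM in D-serine replicates 2 and 3. Kcnma1 had a log2 fold change of -0.13 (SE 0.087, edgeR adjusted p = 0.334). Of the other beta genes, Kcnmb4 was at 1.06 TPM with a log2 fold change of 0.15 (adjusted p = 0.835), Kcnmb3 had 7 counts in all and Kcnmb1 had none. The counts of Kcnmb4 are uncertain, as Kcnmb4os1 and Kcnmb4os2, read from the other strand, share 286 and 338 exonic bases with it.

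The small-conductance genes Kcnn1, Kcnn2 and Kcnn3 encode channels gated by calmodulin rather than by voltage. Kcnn1 was at 5.30, 5.20 and 6.77 CPM in control and at 7.80, 6.20 and 8.54 CPM with D-serine. The groups overlapped in 1 library of each. The log2 fold change of Kcnn1 was 0.38 (SE 0.15, edgeR adjusted p = 0.108). Kcnn3 was at 10.1, 9.03 and 10.6 CPM in control and at 8.62, 13.7 and 13.9 CPM with D-serine. D-serine replicate 1 was the lowest library of all and the other D-serine libraries were the highest. Its log2 fold change was 0.28 (SE 0.15, adjusted p = 0.241), and 0.48 without D-serine replicate 1 (adjusted p = 0.00404). Over the class, 1 of 7 rose and none fell, and 6 of 7 log2 fold changes were above 0, with a median of 0.24. That median is the value of Kcnu1 (SE 0.21, edgeR adjusted p = 0.503). Leaving out 1 library gave medians from 0.13 (without control replicate 3) to 0.30 (without control replicate 1).

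Inward rectifiers pass current best at negative voltages and hold the resting potential. Of 15 genes 4 were tested, and Kcnj12 held 67.6% of the summed TPM at 9.74 TPM. Kcnj2, Kcnj5, Kcnj8, Kcnj11, Kcnj15 and Kcnj16 had no count. None of the 4 was called by edgeR or DESeq2 and none had an unadjusted p under 0.05. Kcnj12 had a log2 fold change of -0.098 (SE 0.073, edgeR adjusted p = 0.406).

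Two-pore-domain channels give a background potassium leak. Of 14 genes 6 were tested, and the acid-sensitive channel gene Kcnk3 held 56.7% of the summed TPM and Kcnk5 20.6%. None was called by edgeR or DESeq2, and 2 had an unadjusted p under 0.05. Kcnk3 was at 40.3, 40.5 and 45.0 CPM in control and at 39.3, 36.2 and 38.7 CPM with D-serine. The groups did not overlap, but the lowest control and the highest D-serine library lay close together. Kcnk3 had a log2 fold change of -0.14 (SE 0.062, edgeR adjusted p = 0.165). The gene Gm9899 shares 229 exonic bases with Kcnk3 on the opposite strand, and as the strand setting of the counting is not given, its counts are uncertain. Kcnk2 had no count in control and 10, 0 and 1 counts with D-serine, so that nearly all came from D-serine replicate 1.

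The long channel genes were compared with other long genes. Of the 62 tested members, 47 were longer than the median tested gene (2834.5 exonic bases), and the median of the members was 3798 bases. Among the 16 members over 7000 bases, the log2 fold change was below 0 in 13 and D-serine replicate 1 was the lowest library in 13 (81.3%). Over all tested genes of that length, D-serine replicate 1 was the lowest in 78.0%. The median log2 fold change was -0.16 in these members and -0.13 in all 976 genes of that length. With the length trend removed, the median of the long members was -0.069.

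In the 21 members of 3500 to 7000 bases, the median log2 fold change was -0.12, against -0.041 in all 3978 tested genes of that length. D-serine replicate 1 was the lowest library in 33.3% of these members and in 43.5% of those genes. The median of these members was -0.079 with the length trend removed. Among the 25 members of up to 3500 bases, the median log2 fold change was 0.037, against 0.042 in all tested genes of that length. Across the 62 members, the rank correlation (Spearman's rho) of exonic length with log2 fold change was -0.28, and -0.13 without D-serine replicate 1. Over all tested genes rho was -0.29. These values are across genes that share the same 6 libraries and describe the pattern only. The plot of fold change by length shows most of the long calcium, sodium and Kv genes below 0 on the left and closer to 0 on the right. The calcium channel genes Cacna1i and Cacna1a were above 0 on the left (0.14 and 0.046) and further above it on the right (0.25 and 0.13). Scn9a went from -0.018 to 0.089.

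**Figure D4:**
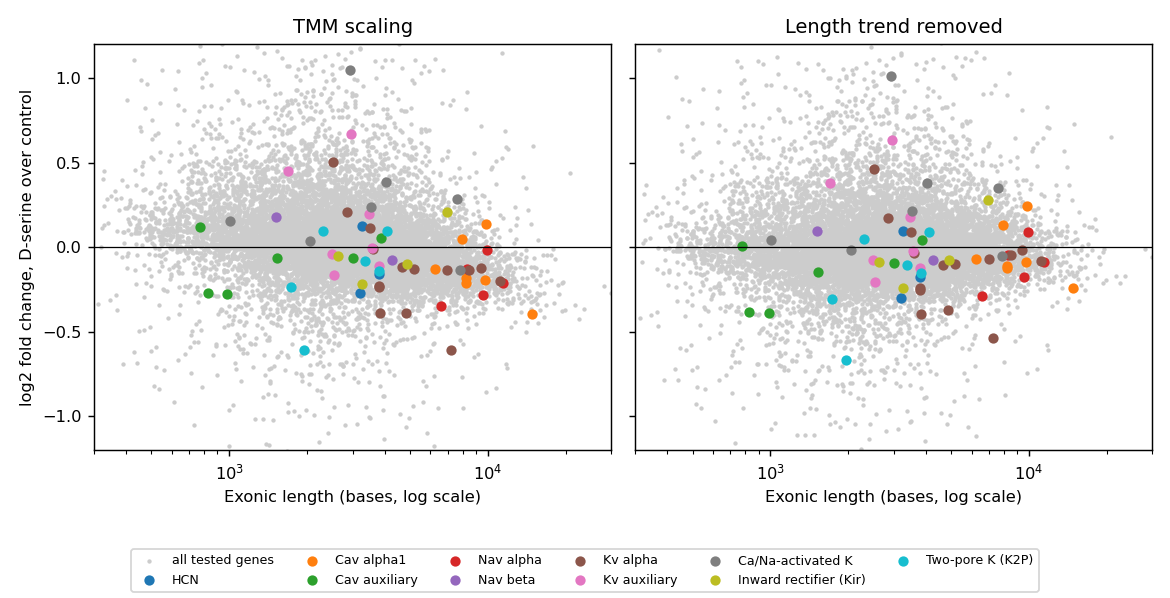
Log2 fold change of D-serine over control (vertical axis) against exonic length in bases (horizontal axis, log scale) with TMM scaling (left) and with the length trend of each library removed (right); grey points are all tested genes within the plotted range and coloured points the 62 channel genes by class. The median of the 16 members over 7000 bases was -0.16 on the left and -0.069 on the right.

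With the length trend removed, 8 of the 62 members passed the threshold (12.9%), where 15.8% of all genes did. They were the same 4 as before with Cacng4 and Kcnh4 lower and Cacna1i and Kcnn3 higher. That fit also removes any effect of treatment that follows length.

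Partners of these channels outside the symbol rule were taken as a list of 42 genes from general knowledge, of which 32 were tested. Of these, 3 rose and 3 fell (18.8% called, where 9.74% of all genes were), and the median log2 fold change was -0.0044. The list spans anchoring proteins, GTPases, calmodulin, corepressors and related pores.

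Among the partners that rose, Gem, a GTPase that inhibits voltage-gated calcium channels, went from 43.1 ± 0.94 to 50.8 ± 0.74 CPM (SD, n = 3 each). Gem had a log2 fold change of 0.24 (edgeR adjusted p = 0.0160). Calm2, which encodes calmodulin, the calcium sensor of many of these channels, had a log2 fold change of 0.18 (adjusted p = 0.0221). Calm3, which encodes the same protein, had -0.0088 (adjusted p = 0.928). With the length trend removed Calm2 lost its call (0.083, adjusted p = 0.104).

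Among the partners that fell, Tpcn1, a two-pore cation channel of endolysosomes, went from 20.1 ± 1.51 to 16.0 ± 0.79 CPM (SD, n = 3 each). Tpcn1 had a log2 fold change of -0.33 (edgeR adjusted p = 0.0254). Rcor1 encodes a corepressor that works with REST, a repressor of neuronal genes including channel genes, and had a log2 fold change of -0.20 (adjusted p = 0.0410). Rest itself had -0.23 (adjusted p = 0.0937). It passed the threshold with the length trend removed (-0.23, adjusted p = 0.0144). Without D-serine replicate 1, Rest had -0.12 (adjusted p = 0.130). Sptbn4, a spectrin that holds channels at axon initial segments, had -0.20 (adjusted p = 0.0469) and lost its call with the length trend removed (-0.092, adjusted p = 0.242). The control mean of Scn2a1 was 27.4 ± 1.30 CPM and its D-serine mean 23.9 ± 3.89 CPM (adjusted p = 0.222). No partner was called by edgeR when control replicate 1, control replicate 2 or D-serine replicate 3 was left out. Few genes of any kind were called in those fits, with 0.921%, 0.501% and 2.15% of all genes in that order.

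**Figure D5:**
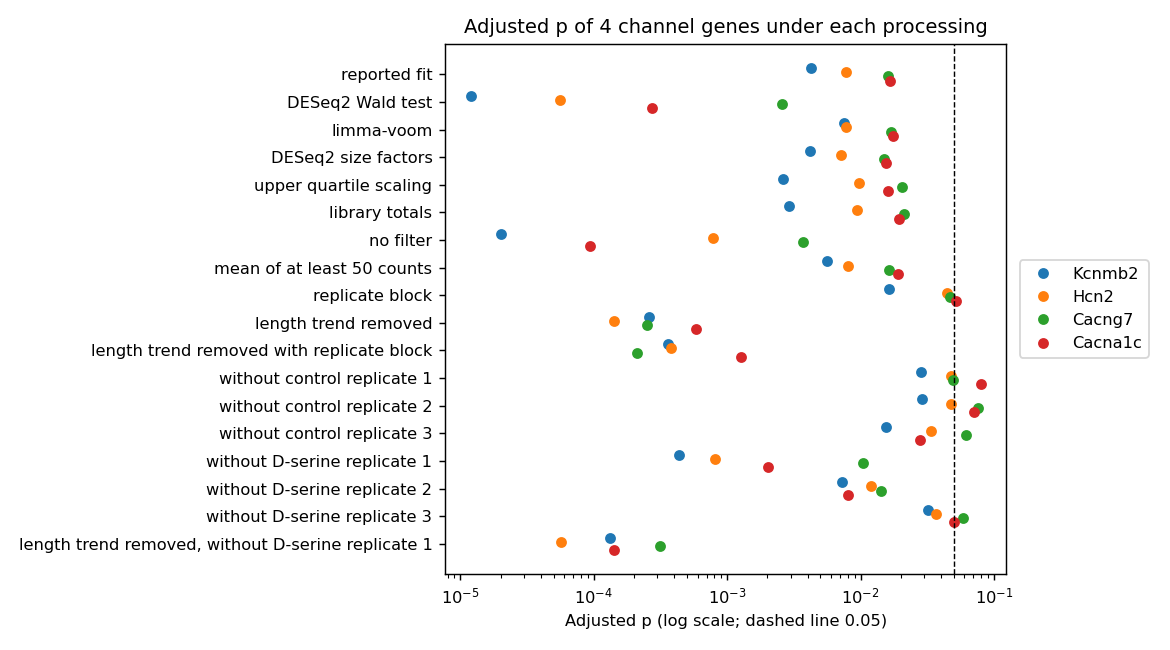
Adjusted p (horizontal axis, log scale) of the 4 channel genes past the threshold in the reported fit and in 17 alternatives (rows); the dashed line is 0.05. Kcnmb2 and Hcn2 stay left of the line in every row, with highest values of 0.0319 and 0.0477, whereas Cacng7 crosses it in 3 rows and Cacna1c in 4.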

How the data were processed

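Poly(A) RNA of 6 Neuro2a samples was sequenced from stranded libraries, per the labels' protocols. The deposited file holds raw counts and exonic lengths by gene, in the column layout of featureCounts. The submitters' processing notes name bcl2fastq, Trim Galore, HISAT2, featureCounts, Subread and DESeq2, and the builds GRCm38 and mm10. Versions, strand setting and treatment of reads with several positions are not given in the sources used here. Of 23030 symbols on the same chromosome, 309 had the same start in RefSeq's GRCm38.p6, so deposited coordinates are printed as deposited, with the build open. Columns named vehicle were matched to the control samples by number and treatment label.

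Counts were tested with edgeR 4.0.16 in R 4.3.3 (filterByExpr, TMM, quasi-likelihood F test, no covariate, 13366 genes). The two-sided p-values were adjusted by Benjamini-Hochberg over every gene in the fit, and 0.05 was the threshold. CPM uses TMM-scaled library sizes. The standard error is the log2 fold change divided by the square root of F. The fit was tested on simulated data. Alternatives were DESeq2 1.42.0, limma-voom (limma 3.58.1), other scalings and filters, a replicate block, removal of each library's trend on length (spline, 5 degrees of freedom) and leaving out each library. The fit that removes the length trend and leaves out D-serine replicate 1 was added after seeing the data. Named genes were members past the threshold, the 10 with the smallest p, the 10 most abundant, the most abundant of each class, and partners past the threshold; others were named after their values were seen. The members and lists were chosen with earlier results of these data known. RefSeq promoter windows were matched by symbol for 98 of the 135 members and 42 of the 62 tested ones, under the share needed to compare classes, so no such comparison was made. Some of the genes the rule names, and other members, are not reported here, although they stay in the counts and medians.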

Additional observations from a re-analysis of the deposited data

How the results depend on the processing

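Kcnmb2 and Hcn2 kept their call in all 17 alternatives, Cacng7 in 14 and Cacna1c in 13, and no call of a named gene reversed. The replicate numbers did not pair the libraries (correlations of same-numbered deviations -0.07, 0.02 and -0.02). With the replicate block, 298 genes were called in all, 3 channel genes (4.84%, against 2.23% of all genes; Cacna1c had an adjusted p of 0.0515) and 0 partners (Gem had an adjusted p of 0.0544). With no filter, 9 of 106 channel genes were called (8.49%, against 10.6% of all genes), 8 of them lower. With the length trend removed, 2118 genes were called in all and 8 channel genes, 3 higher and 5 lower; together with the replicate block, 9 channel genes (14.5%, against 14.1% of all genes), 4 higher and 5 lower. With the length trend removed and D-serine replicate 1 left out, but no replicate block, 2107 genes were called in all. Of the channel genes 11 were called (17.7%, against 15.5%), 3 higher and 8 lower. In these 3 fits the median log2 fold change of the auxiliary calcium channel subunits was -0.12. In the last of them it was -0.077 for Kv auxiliary subunits, 0.096 for calcium- and sodium-activated channels, -0.16 for two-pore-domain channels and -0.056 for Nav alpha subunits. The cause was not tested.

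Leaving out 1 library gave from 68 to 1699 called genes in all, from 2 to 7 channel genes, from 1 to 2 higher, from 1 to 5 lower, and from 0 to 6 partners. Medians of log2 fold change lay between -0.13 and -0.058 over the channel genes, and ran from -0.24 to -0.052 for HCN, from -0.078 to 0.18 for Kv auxiliary subunits and from -0.12 to 0.0056 for inward rectifiers. Scaling by the upper quartile moved the split of all calls to 914 higher and 412 lower, from 647 and 655, with the same 4 channel genes called. The 73 untested members include 29 with no count, and the fits with no filter covered the other 44.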
